A study of Mus musculus with 10 samples.

Results

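The DNA replication genes described here are 44 mouse genes for licensing replication origins, unwinding DNA, copying it and supplying its nucleotides. The list was made by name, with earlier results of these data known. It takes in every probe set whose platform annotation gives exactly 1 gene symbol that is on it. That gave 95 of the 45037 probe sets on the array, of which 89 passed a filter on dim signal that kept 27022 in all, and each of the 44 genes kept at least 1. The 6 probe sets that did not pass were extra probe sets of Cdt1, E2f1, Pola1, Pola2, Pole2 and Tyms. The filter lay at a mean normalized intensity of 11.1. A Pole2 probe set just outside it averaged 11.1 and a Tyms probe set just inside it averaged 13.8.

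The 10 samples are single whole livers of mouse embryos of day 14.5, 5 wild type and 5 Zfp36l2 knockout, all of a mixed b6 and 129 background. Each liver had its own array, with blood-forming and liver cells mixed in it. Neither litter and sex nor the design of the knockout allele is given in the labels. The Zfp36l2 protein is a relative of tristetraprolin that attaches to AU-rich stretches of mRNAs and speeds their decay. The comparison asks whether replication genes differ in liver without that protein, and how they relate to the erythroid transcription factors Gata1 and Klf1.

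Before S phase the origin recognition complex, with Cdc6 and Cdt1, loads rings of the MCM helicase onto DNA, and geminin blocks further loading. Cdc45 and the GINS complex then switch the helicase on, primase and polymerase alpha start each strand, and polymerases delta and epsilon extend it on a clamp of PCNA. Most of these genes are transcribed in cells that are cycling, many under control of E2F factors. The fetal liver at this age is the main blood-forming organ and is rich in dividing red cell precursors.

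Values are normalized intensities, that is, the deposited intensities after quantile normalization. Intensities of different probe sets do not rank mRNA levels, so each gene is compared only with itself. A difference is the mean log2 value in knockout minus that in wild type livers, with values under 16 set to 16, and is given ± the standard error of limma. A gene was called where its limma p, adjusted by Benjamini-Hochberg over all tested probe sets, was under 0.05. A gene stands for its tested probe set of highest mean intensity.

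Zfp36l2 itself measured 396, 397, 596, 391 and 389 in wild type replicates 1 to 5. In knockout replicates 1 to 5 it measured 108, 82.3, 109, 103 and 108, so no livers overlapped and the labels held. The liver markers Afp and Alb and the erythroid Klf1 were bright in every liver, at means of 16358, 15407 and 4343 in wild type. Array medians before normalization ran from 19.5 to 25.01. Over all genes, 42 of 12744 genes were called, 22 lower and 20 higher in knockout livers, which is 0.33% of genes. That count was 11 to 25 without any single liver, except 103 without wild type replicate 5.

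Most replication genes averaged slightly lower in the knockout livers. Of 44 genes, 41 had a negative difference, against 49.9% of all tested genes. Their median difference was -0.15, a ratio of 0.898, while the median of all tested genes was 0.00022. The differences ran from -0.41 for Gins3 to 0.04 for Pold2, and 3 genes, Pold2, Rfc3 and E2f1, were not negative. None was called: limma gave 0 genes past the adjusted threshold, the lowest adjusted p being 0.112 for Rfc4. At an unadjusted limma p under 0.05, 19 were lower and 0 higher, or 43.2% of members, where 5.67% of all tested genes were lower and 5.97% higher by that rule. Among all genes with a mean intensity of at least 200, a split chosen after seeing the data, the share lower was 9.24%. Since the livers are bulk samples, fewer cycling cells and less of each mRNA per cycling cell cannot be told apart.

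The size of the pattern differed from liver to liver. Each liver's median deviation over the 44 genes was 0.02, 0.11, 0.06, 0.15 and 0.07 in wild type replicates 1 to 5. It was -0.03, -0.19, -0.10, 0.05 and -0.05 in knockout replicates 1 to 5. Knockout replicate 2 was lowest of all livers. Knockout replicate 4 lay above wild type replicate 1, so the genotypes overlapped. Without knockout replicate 2, 38 of 44 genes were still negative and the median was -0.12, but 12 genes in place of 19 passed the unadjusted threshold. The count was 11 without the variance trend in limma. With arrays scaled to 1 median in place of quantile normalization it was 4, beside 2.47% of all genes. The array medians that set this scaling, 19.5 to 25.01, lay just above the floor of 16. That scaling raised the median of all genes to 0.06 and turned the split of all genes at that threshold from 722 lower and 761 higher to 315 lower and 1190 higher. The members' median there was -0.09, with 37 of 44 negative. The livers overlapped more under that scaling: knockout replicates 4 and 5, at 0.12 and 0.11, lay above every wild type liver except replicate 2, at 0.15.

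**Figure D1:**
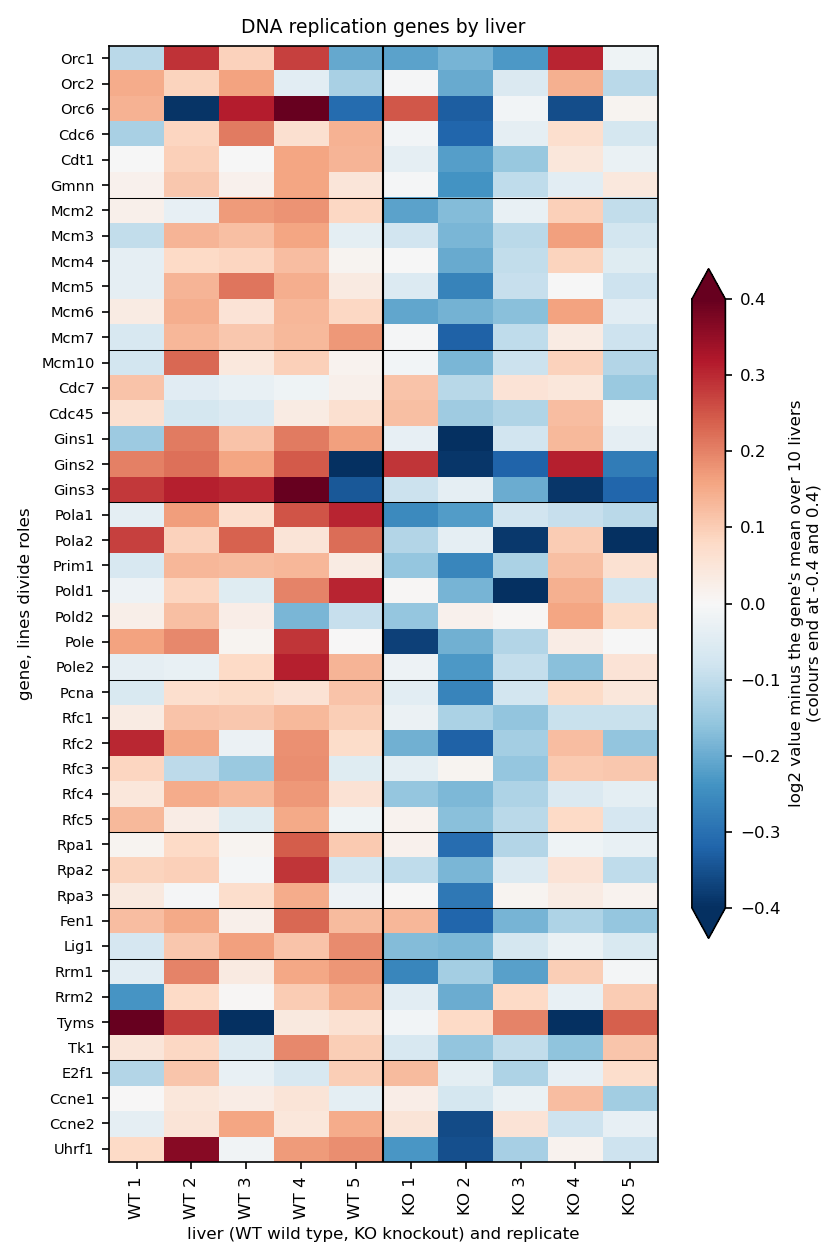
Heat map of the 44 DNA replication genes (rows, grouped by role) over 10 livers (columns, wild type left and knockout right of the line). Colour is the log2 value minus the gene's mean over the 10 livers; the knockout replicate 2 column is mostly blue, at a median of -0.19, and the knockout replicate 4 column is mixed, at 0.05.

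Many promoters of these genes hold letters that E2F factors are known to bind. Promoter windows of 300 bases, from 250 before to 50 after the annotated start, were found for 37 of the 44 genes in RefSeq (GRCm38.p6). The motifs TTTCCCGC, TTTGGCGC, TTTCGCGC and TTTGCCGC were searched on both strands. At least 1 stood in a window of 14 of 37 member genes, or 37.8%, against 2.60% of all 27025 genes and 4.39% of tested genes outside the list. They were Orc1, Cdc6, Cdt1, Mcm3, Mcm5, Mcm6, Mcm7, Gins3, Pola1, Pold1, Pole2, Rfc3, Lig1 and Uhrf1. The CCAAT box, searched as CCAAT on both strands, stood in 62.2% of member genes and 41.1% of all genes. The 14 with an E2F motif had a median difference of -0.19 with 8 lower at an unadjusted limma p under 0.05, and the other 23 had a median of -0.12 with 8 lower. Among 451 tested genes outside the list with the motif, 57.9% were negative, and 9.53% were lower and 3.33% higher at that threshold. Among 9834 such genes without it those shares were 49.5%, 5.44% and 6.04%. Genes with the motif were also brighter. Their median intensity was 1044 against 568 without it among members, and 186 against 114 among the other tested genes. The share lower rose with intensity as well, from 5.67% of all tested genes to 9.24% of those at 200 or more. Whether the differences go with the motif or with intensity was not tested. The motif matches are counts of letters, with no test and no measure of binding.

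Windows are shown for Mcm6, which has the most matches, for Pola1 and Uhrf1, the members with a match and the lowest p, and for Rfc4, which had the lowest p of all and no match. Each runs 5′ to 3′ on the gene's strand with motif letters in capitals. In Mcm6, on the minus strand at chr1:128359656-128359955, the first pair of matches overlaps, on opposite strands. Pola1 is on the minus strand at chrX:93632106-93632405. The Uhrf1 window, on the plus strand at chr17:56304063-56304362, is the one with a match of the gene's pair of windows. Rfc4 is on the minus strand at chr16:23127681-23127980.
Mcm6: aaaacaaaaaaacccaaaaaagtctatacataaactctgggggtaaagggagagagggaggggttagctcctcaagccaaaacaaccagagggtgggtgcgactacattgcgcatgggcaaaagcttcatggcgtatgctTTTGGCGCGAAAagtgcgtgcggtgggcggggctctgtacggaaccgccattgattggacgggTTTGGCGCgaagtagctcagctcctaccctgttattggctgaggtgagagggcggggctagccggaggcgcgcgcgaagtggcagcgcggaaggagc
Pola1: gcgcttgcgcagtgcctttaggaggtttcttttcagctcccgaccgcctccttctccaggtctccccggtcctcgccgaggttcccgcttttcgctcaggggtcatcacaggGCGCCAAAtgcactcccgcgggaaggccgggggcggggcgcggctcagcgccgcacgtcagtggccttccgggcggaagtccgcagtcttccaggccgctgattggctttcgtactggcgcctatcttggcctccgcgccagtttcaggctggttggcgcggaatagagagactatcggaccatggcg
Uhrf1: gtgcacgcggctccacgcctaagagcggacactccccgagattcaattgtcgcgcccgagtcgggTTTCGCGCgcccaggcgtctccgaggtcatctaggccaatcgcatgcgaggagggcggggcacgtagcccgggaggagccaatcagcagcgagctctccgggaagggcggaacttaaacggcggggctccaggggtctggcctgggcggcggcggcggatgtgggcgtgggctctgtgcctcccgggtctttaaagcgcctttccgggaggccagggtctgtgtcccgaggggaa
Rfc4: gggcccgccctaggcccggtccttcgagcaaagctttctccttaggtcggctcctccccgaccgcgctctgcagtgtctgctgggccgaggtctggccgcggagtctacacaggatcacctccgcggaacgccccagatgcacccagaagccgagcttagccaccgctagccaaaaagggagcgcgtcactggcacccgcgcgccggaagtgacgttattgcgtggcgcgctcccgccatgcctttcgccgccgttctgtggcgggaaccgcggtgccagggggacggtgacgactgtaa

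All 6 licensing genes were lower in knockout livers, by 0.09 to 0.17 on the log2 scale, and none was called. Cdt1, which brings MCM rings to the origin, measured 2909, 3111, 2909, 3244 and 3198 in wild type replicates 1 to 5. In knockout replicates 1 to 5 it measured 2838, 2500, 2620, 3002 and 2855. Only knockout replicate 4 reached the wild type range. The difference was -0.16 ± 0.06 (limma adjusted p = 0.378). Its inhibitor geminin, Gmnn, measured 1346, 1432, 1346, 1484 and 1373 in wild type against 1324, 1126, 1239, 1290 and 1367 in knockout livers, replicates in order. Knockout replicate 5 alone lay among the wild type livers, and the difference was -0.14 ± 0.06 (limma adjusted p = 0.459). Cdc6, the ATPase that joins the origin complex for loading, averaged 1227 ± 104 and 1110 ± 107 (SD, n = 5 each). The origin recognition subunits Orc1, Orc2 and Orc6 had differences of -0.14, -0.09 and -0.17 that lay within their spread. Orc6 ran from 413 to 871 in wild type livers alone.

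The MCM ring was lower throughout. Its 6 subunits, Mcm2 to Mcm7, form the core of the replicative helicase, and all were lower by 0.11 to 0.20, with 4 of 6 at an unadjusted limma p under 0.05 and 0 called. Mcm5 measured 2656, 2989, 3155, 3011 and 2791 in wild type livers. In knockout livers it measured 2620, 2260, 2554, 2717 and 2568, with replicate 4 alone above the lowest wild type liver. Its difference was -0.20 ± 0.06 (limma adjusted p = 0.248). Mcm7 measured 4310, 4941, 4851, 4926 and 5083 in wild type livers, and 4492, 3605, 4201, 4609 and 4255 in knockout livers. Wild type replicate 1 was low and lay among the knockout livers, and the difference was -0.19 ± 0.07 (limma adjusted p = 0.338). Mcm6 measured 3075, 3325, 3126, 3298 and 3183 in wild type livers, and 2605, 2639, 2682, 3363 and 2922 in knockout livers. Knockout replicate 4 was above every wild type liver while the other 4 were below every one, and the difference was -0.18 ± 0.07 (limma adjusted p = 0.374). Mcm2 (-0.17 ± 0.07), Mcm3 (-0.11 ± 0.07) and Mcm4 (-0.11 ± 0.06) completed the ring.

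The genes that switch the loaded helicase on varied more. All 6 were negative, from -0.01 to -0.41, and none was lower at an unadjusted limma p under 0.05. Gins1, a subunit of the GINS complex, measured 432, 552, 517, 551 and 535 in wild type livers, and 467, 330, 453, 523 and 466 in knockout livers. Wild type replicate 1 and knockout replicate 4 overlapped the other genotype, and the difference was -0.22 ± 0.11 (limma adjusted p = 0.554). Gins3 had the widest gap, from 66.9 ± 12.8 to 49.7 ± 5.12 (SD, n = 5 each), but it was dim and wild type replicate 5, at 45.0, lay among the knockout livers. A dimmer Gins3 probe set had a difference of 0.37 ± 0.29. Gins2 (-0.16 ± 0.16) and Mcm10 (-0.12 ± 0.08), which helps the helicase start, were within their spread. The kinase gene Cdc7 (-0.02 ± 0.08) and the helicase cofactor Cdc45 (-0.01 ± 0.08) were at nearly the same intensity in both genotypes, and their sign turned positive with median scaling.

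Polymerase genes had the most negative median of the roles with more than 2 genes. Of 7, 6 were lower, 4 of them at an unadjusted limma p under 0.05, with a median of -0.21 and 0 called. The other such medians lay between -0.09 and -0.17. Pola1, the catalytic subunit of polymerase alpha, measured 379, 438, 408, 464 and 481 in wild type livers, and 327, 334, 370, 365 and 362 in knockout livers. No livers overlapped, and the difference was -0.30 ± 0.08 (limma adjusted p = 0.159). Its partner subunit gene Pola2 measured 487, 430, 475, 418 and 471 in wild type livers, and 372, 393, 309, 433 and 299 in knockout livers. Knockout replicate 4 alone reached the wild type range, and the difference was -0.35 ± 0.10 (limma adjusted p = 0.208). Pole, the catalytic subunit of polymerase epsilon, measured 326, 334, 295, 357 and 293 in wild type livers, and 225, 256, 269, 298 and 292 in knockout livers. Only knockout replicate 4 was above the lowest wild type livers, and the difference was -0.26 ± 0.10 (limma adjusted p = 0.349). Pole2 (-0.18 ± 0.08), the primase gene Prim1 (-0.15 ± 0.07) and the polymerase delta catalytic gene Pold1 (-0.21 ± 0.11) were also negative. Prim1 measured 971, 1113, 1107, 1114 and 1039 in wild type livers, and 912, 847, 929, 1102 and 1058 in knockout livers, so the genotypes overlapped. Second probe sets of about the same intensity differed more. They gave -0.21 ± 0.06 for Prim1 (limma adjusted p = 0.153) and -0.32 ± 0.12 for Pold1 (limma adjusted p = 0.371). Pold2, the second subunit of polymerase delta, went the other way at 454 ± 36.5 and 468 ± 36.6 (SD, n = 5 each).

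Replication factor C, the clamp loader, opens the PCNA ring and closes it on DNA, and of its 5 subunits Rfc1, Rfc2 and Rfc4 were lower at an unadjusted limma p under 0.05. Rfc3 differed by 0.01 ± 0.08, and by -0.14 ± 0.12 in its other probe set. Rfc4 measured 1226, 1319, 1299, 1341 and 1238 in wild type livers, and 1068, 1049, 1092, 1141 and 1158 in knockout livers. No livers overlapped, and its difference of -0.22 ± 0.05 was the one with the lowest adjusted p of the members (limma adjusted p = 0.112). Rfc1, the largest subunit, measured 325, 344, 342, 348 and 341 in wild type livers, and 313, 291, 285, 299 and 299 in knockout livers. It too had no overlap, at -0.19 ± 0.07 (limma adjusted p = 0.329). Pola1, Rfc1 and Rfc4 were the 3 members without overlap, where 1.46% of all tested genes had all knockout livers below all wild type livers. Among genes with a mean intensity of at least 200, as these 3 have, the share was higher, at 124 of 4450. Rfc2 measured 680, 613, 543, 626 and 581 in wild type livers, and 483, 441, 502, 602 and 494 in knockout livers. Knockout replicate 4 alone overlapped, and the difference was -0.27 ± 0.09 (limma adjusted p = 0.247). Pcna, the clamp, measured 8490, 9280, 9342, 9212 and 9583 in wild type livers, and 8593, 7374, 8413, 9342 and 9126 in knockout livers. Those ranges overlapped widely (-0.10 ± 0.07, limma adjusted p = 0.656), and Rfc5 differed by -0.10 ± 0.07.

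**Figure D2:**
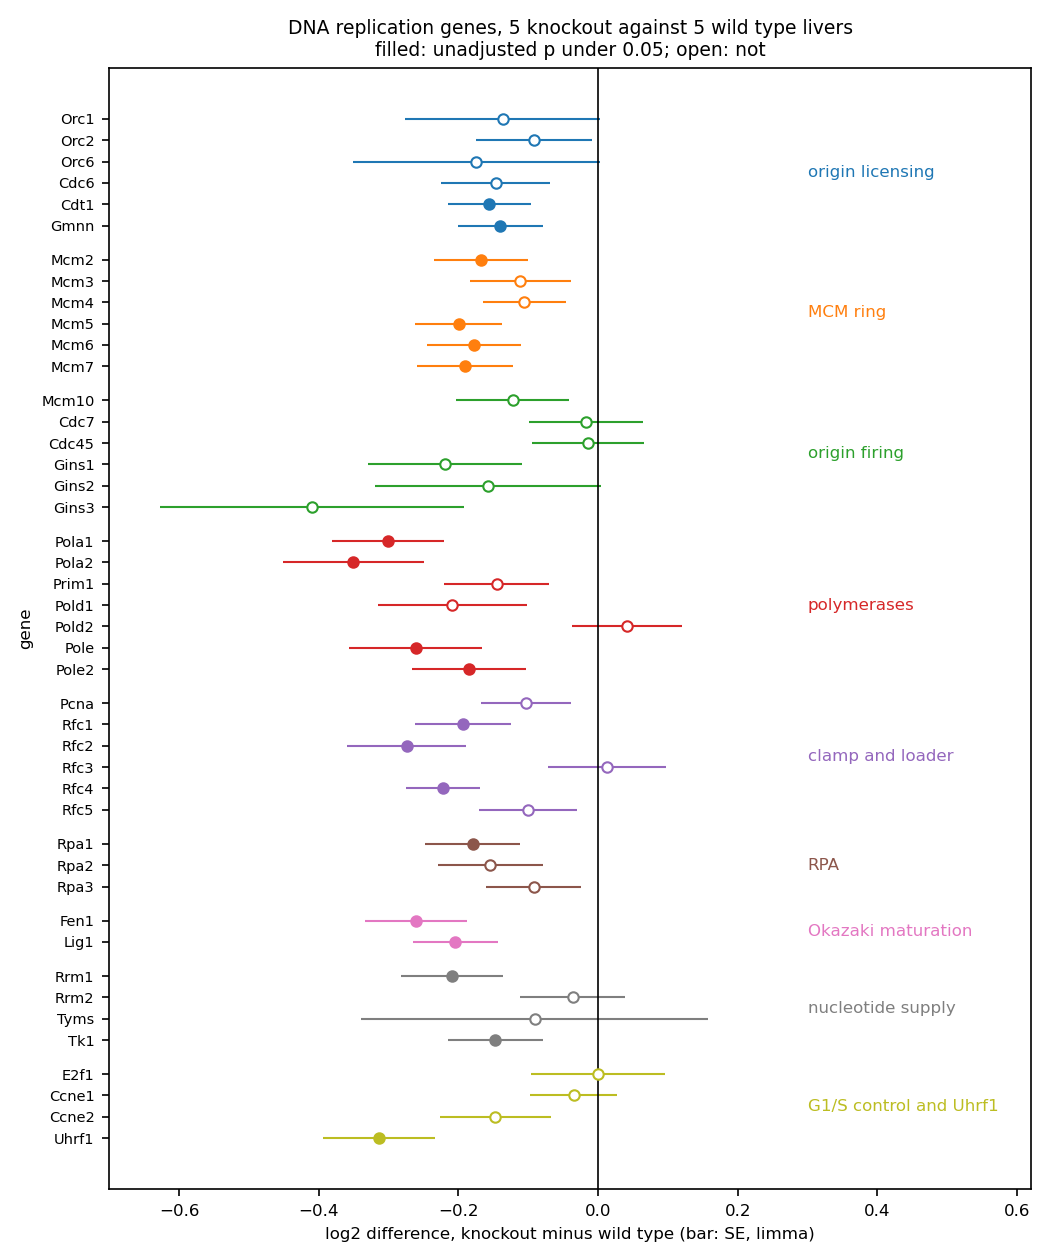
Log2 difference, knockout minus wild type, for each of 44 genes by role, with the standard error of limma as a bar (5 livers a genotype). Filled dots mark the 19 genes with an unadjusted p under 0.05, all left of 0; Gins3, at -0.41, is the farthest left but has a wide bar.

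Replication protein A, which coats single-stranded DNA, has 3 subunits, and all were lower, by 0.09 to 0.18. Rpa1, the large subunit that holds the DNA, measured 2025, 2122, 2023, 2377 and 2157 in wild type livers. In knockout livers it measured 2034, 1626, 1851, 1986 and 1967. Knockout replicate 1 alone overlapped, and the difference was -0.18 ± 0.07 (limma adjusted p = 0.373). Rpa2 (-0.15 ± 0.07) and Rpa3 (-0.09 ± 0.07) did not reach an unadjusted limma p of 0.05.

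Both genes that finish the lagging strand were lower. The flap nuclease Fen1 measured 2309, 2356, 2149, 2487 and 2316 in wild type livers, and 2323, 1702, 1863, 1946 and 1905 in knockout livers. Knockout replicate 1 was at wild type level and the other 4 were below every wild type liver. The difference was -0.26 ± 0.07 (limma adjusted p = 0.191). A second Fen1 probe set had the lowest adjusted p of all member probe sets, with a difference of -0.32 ± 0.07 (limma adjusted p = 0.0710). The ligase Lig1 measured 1033, 1164, 1213, 1170 and 1234 in wild type livers, and 958, 954, 1031, 1062 and 1038 in knockout livers. Wild type replicate 1 lay among the knockout livers, and the difference was -0.20 ± 0.06 (limma adjusted p = 0.221).

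Among nucleotide supply genes the subunits of ribonucleotide reductase, the enzyme that makes deoxyribonucleotides, had differences of unequal size. Rrm1, the large subunit, measured 2086, 2467, 2201, 2390 and 2426 in wild type livers, and 1793, 1955, 1848, 2301 and 2134 in knockout livers. Knockout replicates 4 and 5 overlapped wild type livers, and the difference was -0.21 ± 0.07 (limma adjusted p = 0.317). Rrm2, the small subunit whose level follows S phase, measured 4764, 5922, 5618, 6011 and 6187 in wild type livers, and 5441, 4883, 5922, 5492 and 6011 in knockout livers. Its lowest value was in a wild type liver, and the difference was -0.04 ± 0.08 (limma adjusted p = 0.928). The gap between both subunits was not tested. The thymidine kinase Tk1 measured 763, 781, 711, 842 and 790 in wild type livers, and 706, 661, 690, 660 and 797 in knockout livers. Knockout replicate 5 stood among the wild type livers, and the difference was -0.15 ± 0.07 (limma adjusted p = 0.496). All 4 probe sets of the thymidylate synthase gene Tyms were dim, the brightest averaging 69.4 and 65.3, and its difference of -0.09 ± 0.25 was smaller than its standard error.

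The G1 to S regulators, grouped with Uhrf1 as 1 role, had the median nearest 0 of the 9 roles, at -0.09. E2f1, a transcription factor that turns on many genes of this list, measured 180, 210, 191, 186 and 208 in wild type livers, and 212, 190, 179, 190 and 204 in knockout livers. Its difference was 0.00028 ± 0.10, and the genotypes overlapped fully. The cyclin E genes, whose products drive entry into S phase, had differences of -0.04 ± 0.06 for Ccne1 and -0.15 ± 0.08 for Ccne2. Uhrf1, which binds hemimethylated DNA behind the fork and recruits the maintenance methyltransferase, measured 1051, 1278, 983, 1118 and 1130 in wild type livers. In knockout livers it measured 846, 779, 907, 1002 and 938. Wild type replicate 3 and knockout replicate 4 crossed, and the difference was -0.31 ± 0.08 (limma adjusted p = 0.133).

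**Figure D3:**
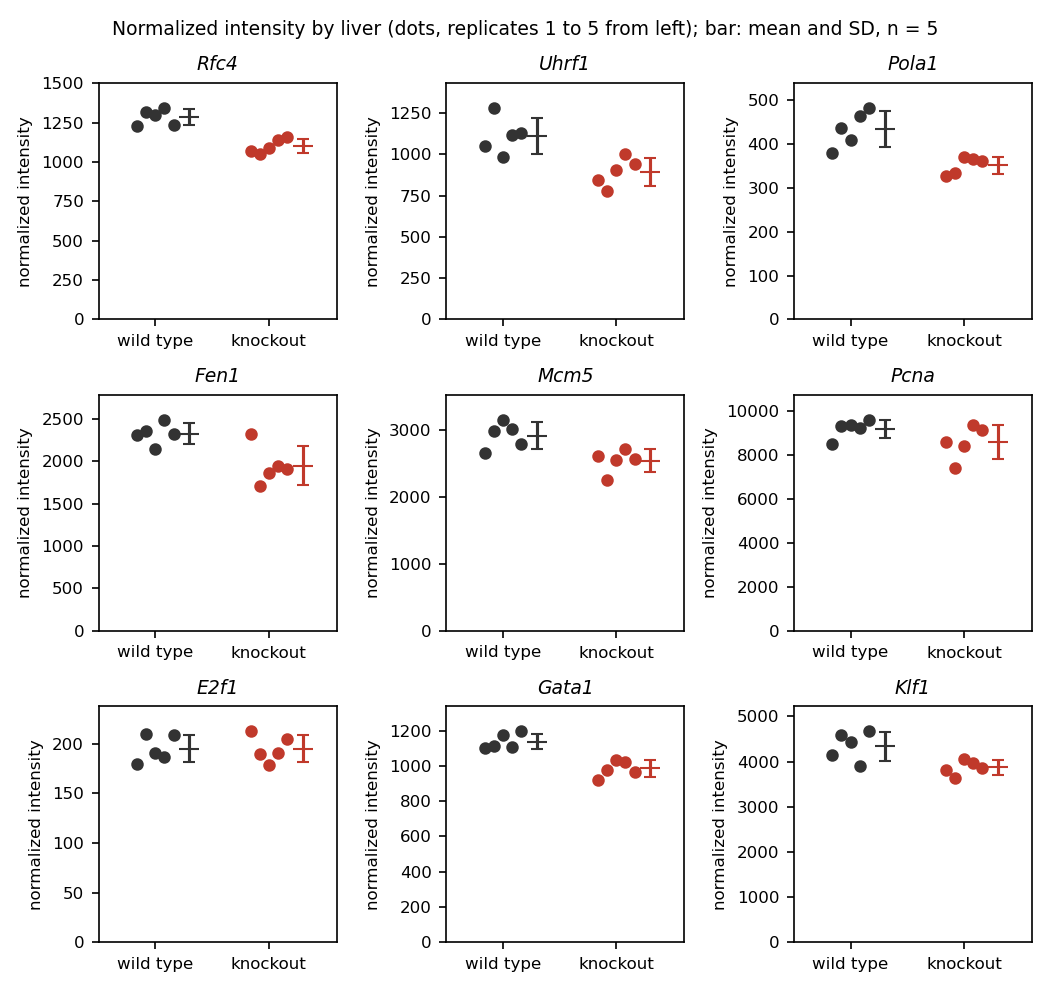
Normalized intensity (y axis, from 0) in each liver for 7 replication genes and the erythroid factors Gata1 and Klf1; dots are livers, replicates 1 to 5 from left, and bars are mean and SD of 5. Rfc4, Pola1 and Gata1 have no overlap between genotypes, while E2f1 averages 195 in both.

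Extra probe sets mostly gave the same sign. Of 31 genes with more than 1 tested probe set, 23 had all of them on 1 side of 0, and 78 of 89 tested member probe sets were negative. At an unadjusted limma p under 0.05, 36 of the 89 were lower and 0 higher, where 4.89% of all tested probe sets were lower. Mcm7 was negative in all 4 of its probe sets, by 0.14 to 0.24, and Rfc1 in all 3, by 0.19 to 0.32. Rrm1 had -0.32 ± 0.08 in another bright probe set and -0.13 ± 0.29 in a dim one. Mcm5 had -0.28 ± 0.07 in its second probe set, averaging 1312 and 1080, but 0.60 ± 0.36 in a dim one averaging 28.8 and 45.3. The 11 positive probe sets included the Rrm2 one at 0.06 ± 0.06 and a Ccne1 one at 0.03 ± 0.07. The probe sets used for Mcm5, Fen1, Rrm2, Ccne1, Mcm3, Mcm7 and Gins2 end in x_at or s_at, names that mark possible binding to several transcripts. Without such probe sets 19 genes again had an unadjusted limma p under 0.05 and 39 of 44 were negative, a choice made after seeing the data.

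Other genes of replication and S phase, a separate list of 49 with 45 tested, were lower too. That list was also chosen with earlier results known. Of the 45, 35 were negative, 13 were lower and 0 higher at an unadjusted limma p under 0.05, and 0 were called, with a median of -0.12. Ccna2, the S phase and G2 cyclin, averaged 2732 ± 228 and 2316 ± 139 (SD, n = 5 each), a difference of -0.24 ± 0.06 (limma adjusted p = 0.177). Wdhd1, which links polymerase alpha to the helicase, differed by -0.25 ± 0.07 (limma adjusted p = 0.191) and Usp1, a deubiquitinase that acts on PCNA, by -0.23 ± 0.07 (limma adjusted p = 0.195). Of 29 mitosis genes 26 were negative, 7 were lower and 0 higher at that threshold, 0 were called and the median was -0.12. The kinase gene Plk1 (-0.31 ± 0.08), the proliferation marker Mki67 (-0.23 ± 0.06) and the cyclin gene Ccnb2 (-0.21 ± 0.07) had the lowest p among them.

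Erythroid genes were lower by a similar amount. Of 22 tested, 21 were negative, 13 were lower and 0 higher at an unadjusted limma p under 0.05, 0 were called, and the median was -0.18. Gata1, the master factor of red cell and megakaryocyte genes, measured 1098, 1113, 1174, 1106 and 1196 in wild type livers, and 922, 978, 1036, 1022 and 967 in knockout livers. No livers overlapped, and the difference was -0.21 ± 0.05 (limma adjusted p = 0.146). Klf1, an activator of globin and other red cell genes, measured 4146, 4576, 4433, 3891 and 4667 in wild type livers, and 3815, 3643, 4045, 3973 and 3862 in knockout livers. Wild type replicate 4 lay among the knockout livers, and the difference was -0.16 ± 0.06 (limma adjusted p = 0.324). The membrane skeleton gene Ank1 (-0.29 ± 0.06, limma adjusted p = 0.0655), the repressor Gfi1b (-0.30 ± 0.08) and the surface protein gene Icam4 (-0.31 ± 0.08) had the lowest p of that list.

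Of the markers of other cells, only megakaryocyte genes passed the adjusted threshold. All 13 tested megakaryocyte markers were lower, and 9 fell past the adjusted threshold: Pf4 (-1.39 ± 0.13, limma adjusted p = 0.000215), Ppbp, Plek, Gp5, Rgs18, Itga2b, Thbs1, Itgb3 and Clec1b, the last at a limma adjusted p of 0.0480. Their summed intensity was 4716 to 6738 in wild type and 2008 to 3309 in knockout livers. All 11 tested macrophage markers were higher with 0 called, and 4 had an unadjusted limma p under 0.05, where 5.97% of all tested genes were higher. C1qc (0.38 ± 0.10), Csf1r (0.44 ± 0.14) and C1qa (0.42 ± 0.13) had the lowest p. The summed intensity of the macrophage markers was 3504 to 5500 in wild type and 5327 to 6169 in knockout livers. Of 11 neutrophil markers 9 were higher and 2 lower, the lowest at -0.24, with 0 called. At an unadjusted limma p under 0.05, 8 were higher and 0 lower. Ltf (1.84 ± 0.44), Lcn2 (1.62 ± 0.40) and Ngp (1.65 ± 0.45) had the lowest p. The neutrophil sum was 6394 to 28085 in wild type and 14216 to 26904 in knockout livers. Of 11 hepatocyte markers 8 were higher with 0 called, at a median of 0.03. At an unadjusted limma p under 0.05, 2 were higher and 0 lower. The hepatocyte sum was 82501 to 94222 in wild type and 82168 to 97493 in knockout livers. Fgb (0.51 ± 0.15), Hnf4a (0.26 ± 0.11) and Apoa2 (0.09 ± 0.06) had the lowest p there. Every tested marker had passed the filter on dim signal, while the listed macrophage marker Cd163 had not. The part of these cell types in the replication gene differences was not tested.

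**Figure D4:**
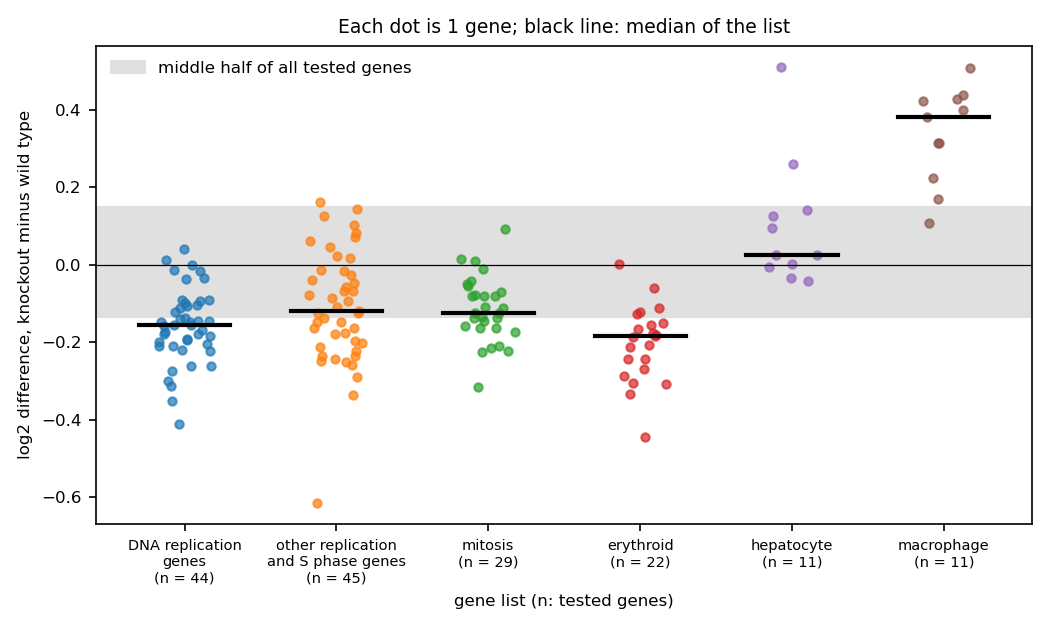
Log2 difference, knockout minus wild type, of each tested gene (dots) in 6 lists, with the list's median as a line and the middle 50% of all tested genes shaded (-0.13 to 0.15). The replication, S phase, mitosis and erythroid medians lie between -0.12 and -0.18, and the macrophage median is at 0.38.

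Replication genes were next set against Gata1 and Klf1 over the livers, on quantile-normalized values. Because Gata1 separates the genotypes completely, no correlation was pooled over them. Each genotype's mean was removed first, and r was taken over the resulting 10 livers, with permutation p-values from all pairings within genotypes and adjustment over 88 relations. With Gata1, 22 of 44 genes had a positive Pearson r and the median was -0.0020, while 48.9% of all tested genes were positive. With Klf1, 27 of 44 were positive and the median was 0.03, against 49.3% of all genes. Taken by genotype, with Klf1 18 of 44 were positive within wild type livers, at a median of -0.15, and 37 of 44 within knockout livers, at a median of 0.48. With Gata1 these were 18 at -0.14 and 25 at 0.12. Each rests on 5 livers, too few to test, and the difference between genotypes was not tested. No relation passed the adjustment, and 2 had an unadjusted permutation p under 0.05 for Pearson's r, both with Gata1. Lig1 had r = 0.71 (permutation p = 0.0224, adjusted 0.916) and rho = 0.71 (permutation p = 0.0322, adjusted 0.841), and r = 0.66 without the 2 livers farthest from the median of Gata1. Gins3 ran the other way with r = -0.60 (permutation p = 0.0466, adjusted 0.916) and rho = -0.61 (permutation p = 0.0788, adjusted 0.841), and r = -0.46 without those livers. The other erythroid genes were positive with Gata1 in 20 of 20 cases, at a median r of 0.65, and mitosis genes in 23 of 29, at a median of 0.26. With Klf1 these were 20 of 20 at 0.61 and 25 of 29 at 0.39. The counts for replication genes changed by over 1.5 times without knockout replicate 4, to 13 positive with Gata1, and without knockout replicate 2, to 17 positive with Klf1. Without wild type replicate 4, 36 were positive with Klf1 and the median was 0.40.

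That result depended on the normalization. With arrays scaled to 1 median, 39 of 44 replication genes had a positive r with Gata1, at a median of 0.53, and 41 with Klf1, at a median of 0.48. On the deposited values as they stand the counts were 42 and 38, at medians of 0.42 and 0.35. By rank the deposited values gave less, a median rho of 0.29 with Gata1 and 0.08 with Klf1. With median scaling the median rho was 0.61 and 0.49. Among all tested genes the positive share with Gata1 was also higher, at 66.0% with median scaling and 70.2% on deposited values. With Klf1 that share was 65.8% and 64.5%. With median scaling 11 relations with Gata1 and 9 with Klf1 had an unadjusted permutation p under 0.05. Of these, that of Lig1 with Gata1 passed the adjustment, at r = 0.91 (permutation p = 6.94e-05, the smallest these pairings can give, adjusted 0.00611) and rho = 0.95 (permutation p = 0.000139, adjusted 0.0122). Why the normalizations differ was not tested. The other erythroid genes were positive with Gata1 in 20 of 20 cases under each of the 3 normalizations. With Klf1 they were positive in 20 of 20 after quantile normalization and median scaling, and in 19 of 20 on deposited values.

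**Figure D5:**
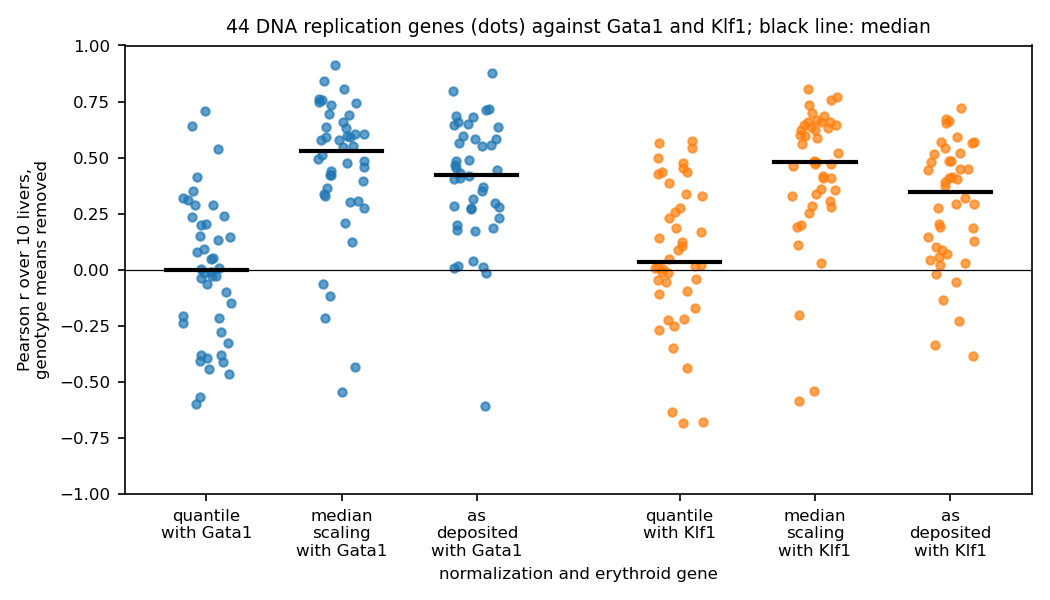
Pearson r (y axis) of each of 44 replication genes (dots) with Gata1 (left) and Klf1 (right) over 10 livers after removal of genotype means, under 3 normalizations, with the median as a line. The median with Gata1 is -0.0020 after quantile normalization, 0.53 after median scaling and 0.42 on deposited values.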

How the data were processed

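The authors deposited linear intensities, with a single number for every probe set on each array. Between 20.7 and 22.6% of an array's numbers were at or below 0, as they are after subtraction of a background. Software and scaling: not given in the sources used here. The 5 livers of each genotype were taken as replicates, as the labels number them. Genes were named through the platform annotation: 34945 probe sets had 1 symbol, 932 several and 9160 none.

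Intensities were quantile normalized, values under 16 (43.1% of each array) were set to 16, and log2 was taken. Probe sets whose mean over the 10 livers reached the 40th percentile, 11.1, were tested two-sided with limma 3.58.1 (lmFit, eBayes with trend) in R 4.3.3, adjusted by Benjamini-Hochberg over 27022 probe sets. The code was tested on simulated data first. A floor at 16 was used because lower values, near background, become large log2 differences. Alternatives covered the floor, scaling, filter, variance trend, probe set choice, replicate number and each left-out liver. The members and the gene lists were chosen with earlier results of these data known, and so was the rule for named genes: all 44 members by role, with every liver's value for up to 3 per role of lowest p and the brightest, and from other lists the called genes or the 3 of lowest p. Figures used matplotlib 3.10.9 under Python 3.11.15. The number of arrays limits the precision.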

Additional observations from a re-analysis of the deposited data

Results flagged for a closer look

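In 5 of 96 groups of 5 livers, 1 liver stood apart by Dixon's criterion, where chance gives about 1 in 20, or 4.8. Zfp36l2 was high in wild type replicate 3, at 596 with the next liver at 397, and low in knockout replicate 2, at 82.3 with the next at 103. In wild type replicate 5, Gins2 was low at 223 with the next liver at 334, and Gins3 was low at 45.0 with the next at 69.4. Rpa3 was low in knockout replicate 2, at 726 with the next liver at 885, and that liver also had the lowest median deviation over the replication genes.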

How the results depend on the processing

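No member was called under any of the 21 alternatives, the lowest limma adjusted p of a member running from 0.0641 to 0.409. The members' median of -0.15 stayed between -0.19 and -0.09. The 42 genes called in all became 9 with the floor at the lowest positive value, 7 with a floor of 32, 1 without the filter, 6 without the variance trend, 27 with the mean of a gene's probe sets and 11 to 103 without 1 liver. With the replicate block 88 genes were called, 36 lower and 52 higher. After removal of genotype means, same-numbered livers correlated at 0.03 to 0.13 over all tested probe sets, above 0.1 only for replicate 5. Once genotype means are removed, a positive value there forces a negative mean correlation with livers of other numbers. That mean, -0.0078 to -0.032, is therefore no separate comparison. Over the members, same-numbered livers correlated at -0.21 to 0.32. Of the wild type livers, 3 of 5 matched best with the knockout liver of their own number. The labels do not explain that match, and it was not tested. The 19 members lower at an unadjusted p under 0.05 became 4 with median scaling, 11 without the trend and 12 to 24 without 1 liver. The 22 members with a positive correlation with Gata1 became 39 with median scaling, 42 on deposited values and 13 to 27 without 1 liver. The 27 with Klf1 became 41 with median scaling and 17 to 36 without 1 liver. Small differences changed sign. With median scaling Cdc7 was 0.052, Cdc45 0.052, Rrm2 0.049 and Ccne1 0.044; on deposited values Rfc3 was -0.0066 and E2f1 -0.0060. With probe set means Mcm5 was 0.040, Cdc45 0.22 and Rfc3 -0.062. Without s_at and x_at probe sets, an alternative chosen after seeing the data, Rrm2 was 0.058 and Ccne1 0.032. Without 1 liver Cdc7 ran from -0.048 to 0.018, Cdc45 from -0.048 to 0.020, Rfc3 from -0.023 to 0.061, Rrm2 from -0.10 to 0.0095, Tyms from -0.24 to 0.082 and E2f1 from -0.031 to 0.031. The cause of these changes was not tested. Of 1554 comparisons over 74 named genes, 1434 kept direction and side of the threshold. Signal near background limits Tyms and Gins3.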
